A study of Mus musculus with 6 samples.

Results

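The deposited comparison of embryonic mouse retina lists many named genes of chromosome 1 at a value of exactly 0 in both genotypes, and these genes are described here. They were chosen by the value itself: complete rows with a gene symbol and a value of 0 in both groups. Symbols of predicted genes (Gm and a digit), microRNAs, small nucleolar RNAs, RIKEN clones, RGS genes, several transporter and channel families and Lgsn were left out. The rule found 104 rows among 1140, or 9.12%. A further 43 microRNA rows, 39 RIKEN rows, 16 Gm rows, 7 small nucleolar RNA rows and 7 rows of the other excluded symbols (4 Slc, 1 Atp, 1 Rgs and Lgsn) were also at 0, so that 216 rows, 18.9% of the table, were at 0 in both groups. Since the value 0 chose the genes, it is a description and was not tested.

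The retinas came from C57BL/6 mice at E15.5. Control animals, called wild type by the submitters, had the genotype T2fx/+ (Tbr2-f/+ in the series title), and the others carried an Isl1 knock-in, T2Isl1/+ (Tbr2-Isl1/+). Both genotypes are heterozygous, with 1 unmodified Tbr2 copy. Each group had 3 libraries of total RNA, each from a pool of 8 retinas, and the labels do not say whether pools shared litters. In the order control, then knock-in, paired values are given below for each gene.

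A developing tissue uses only part of its genome. Receptors for odorants are used in the nose, and serpins of the B clade mostly inside skin and blood cells. Defensins and interleukins belong to barriers and immune cells, and some regulators of patterning act in other regions or at earlier stages. Many of these genes arose by tandem duplication and still lie side by side. A gene row at 0 means that the authors' program assigned no measurable level to it in either group, which is not proof that no cell made the RNA.

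The unit was taken to be FPKM, a fragment count divided by transcript length and sequencing depth, with 1 combined value per group, so no spread between the 3 libraries can be given and the depth is unknown. The authors' deposited table marks all 104 genes as not tested. It has a q-value under 0.05 for 1.55% of the 646 rows that were tested, so nothing about the genes at 0 can be read from that share. All 9 retinal genes of a marker list lay above 0, from 1.25 to 414 FPKM in their higher group. The 11 measured genes that every cell uses lay between 33.4 and 1267 FPKM. Lens genes were also high and differed between groups, with 7 of them summing to 1038 and 93.6 FPKM. White blood cell markers summed to 1.14 and 1.58 FPKM over 6 genes, and liver markers to 1.00 and 1.06 FPKM over 6 genes. The part of other tissue in the values below was not tested.

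The smallest values above 0 show how fine the scale was. The row nearest to 0 was Abca12, a lipid transporter of skin, with 0.00264 and 0.00251 FPKM. Next came Gm15455 with 0 and 0.00468 FPKM, D1Pas1 with 0 and 0.00569 FPKM, and Cd244, a receptor of natural killer cells, with 0.00571 and 0.00558 FPKM. Of all rows, 116 were above 0 but at most 0.05 FPKM, and 169 were above 0 but at most 0.1 FPKM. The threshold therefore cut through a dense band of very low rows rather than a gap. In 70 rows the value was 0 in only 1 of the groups, 30 of them at 0 in control and 40 at 0 in knock-in retinas. For the 50 protein-coding rows of this kind with an annotated transcript, the value multiplied by transcript length was at least 0.0183 FPKM times kilobases, with a median of 0.0384.

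**Figure D1:**
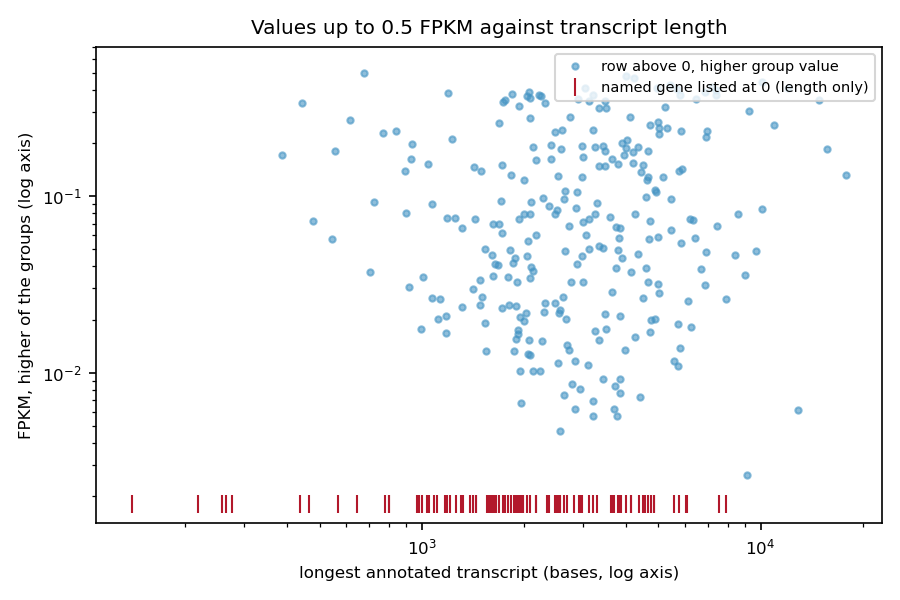
Each circle is a row above 0 and at most 0.5 FPKM, placed by the length of its longest annotated transcript in bases (log axis) and its higher group value in FPKM (log axis), and the red ticks give only the lengths of named genes listed at 0. The 17 circles under 0.01 FPKM all lie at 1964 bases or more, and the ticks run from 140 to 7927 bases. Ticks of olfactory receptors, the longest among them, mostly exceed the table's own short entries for these genes.

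The 17 rows with a value above 0 but under 0.01 FPKM had transcripts of at least 1964 bases. Of the 101 named genes with an annotated transcript, 51 were shorter than that, so for them no value that low was seen in any row. These lengths overstate the models of the olfactory receptors. In 19 of 21 matched receptors the table's locus was shorter than the annotated transcript, and the 22 entries had a median of 0.968 kb. The count of 51 may therefore be too low. The longest annotated transcripts of the named genes had a median of 1946 bases. In 5 of them the transcript was under 300 bases: Defb18, the pseudogene Defb44-ps, the peptide hormone gene Prlh and the small Cajal body RNAs Scarna6 and Scarna3a. The part of transcript size in these 5 values was not tested.

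Of the 104 genes, 90 were protein-coding by annotation. The rest were long noncoding RNAs, 2 small Cajal body RNAs, pseudogenes and 2 rows with no annotation matched. By the role assigned to each, 22 were olfactory receptors and 18 were genes of immunity and host defence. Germ cells and the reproductive tract accounted for 11, clade B serpins for 7, peptide hormones with their receptors and sensory channels for 7, and gut, kidney, liver and pancreas genes for 7. There were 6 regulators of early patterning, 5 complement and clotting genes, 3 muscle genes and 9 noncoding RNAs or pseudogenes, and for the remaining 9 no role was assigned.

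The family lists drawn up for the chromosome show how evenly relatives shared the 0. Of 29 lists, 27 had a row in the table and 18 had at least 1 of the 104 genes. All 3 beta defensins and 22 of 24 olfactory receptors were at 0, as were 7 of 12 clade B serpins and 5 of 8 rows of a list of complement regulators that also holds the clotting gene F13b, beside 18.9% of all rows. In 12 of these 18 families no row exceeded 0.1 FPKM in either group. The lists go by symbol and miss relatives with other names. Thus Mptx1 (a pentraxin), Avpr1b (a G protein-coupled receptor), Ccl20 (a chemokine) and Fcmr (an Fc receptor) were at 0 but stood outside the lists of their kind. With that limit, the lists whose symbols caught none of the 104 genes were the UDP-glucuronosyltransferase 1 locus, interleukin 1 receptors, interferon-inducible PYHIN genes, pentraxins, aldehyde oxidases, other G protein-coupled receptors, glutathione transferases, lens genes (where Lgsn is at 0 but left out by the rule) and late photoreceptor genes. The UDP-glucuronosyltransferase 1 locus, pentraxins and glutathione transferases had only 1 row each, and the PYHIN and late photoreceptor lists 2 each. The late photoreceptor list held Sag, with 0.253 and 0.149 FPKM, and Pde6d, with 49.4 and 54.4 FPKM. Pde6d was taken in by symbol alone, so its value does not speak for late photoreceptor genes. All 4 aldehyde oxidases were above 0 but at most 0.1 FPKM. Minus-strand relatives beyond position 156719102, where the table's minus-strand rows end, were not seen. Among lists with several rows, related genes were at 0 together in some and not in others.

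**Figure D2:**
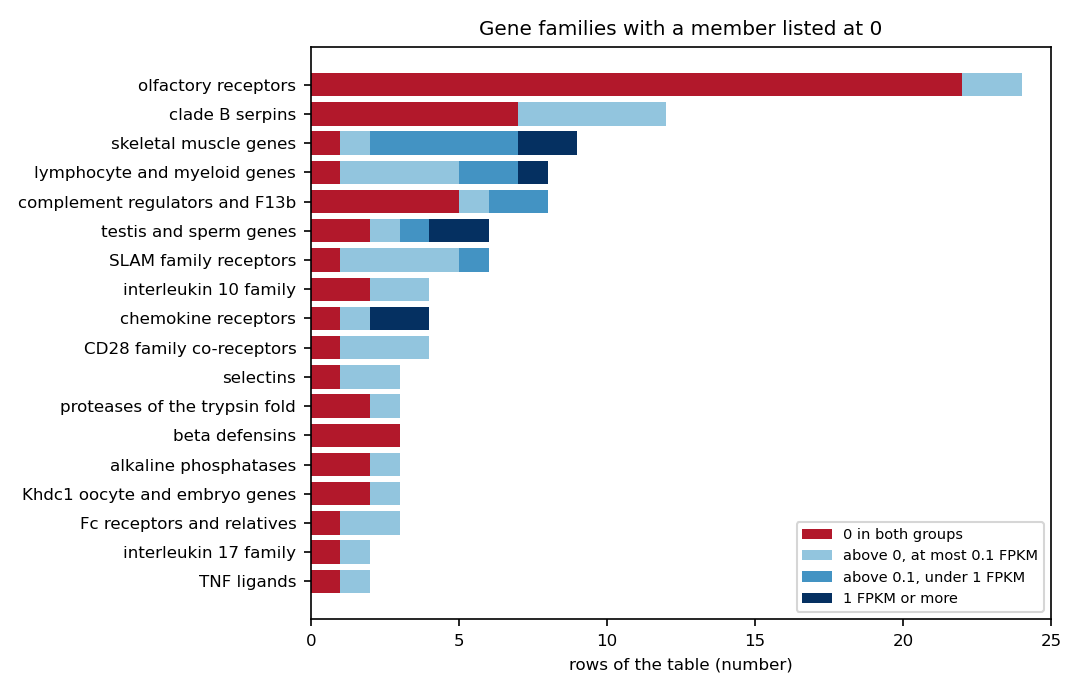
Bars count the table rows of each family that has at least 1 of the named genes at 0, coloured by the higher of the group values in FPKM, with families listed by symbol. Olfactory receptors form the longest bar with 22 of 24 rows at 0. The chemokine receptor, testis and muscle lists are among those that also hold rows at 1 FPKM or more. In the testis list these are Adam23 and Spag16, taken in by symbol alone.

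Olfactory receptors, the odorant-sensing G protein-coupled receptors of nasal neurons, made up the largest family. The 22 rows at 0 lay in 3 groups on chromosome 1 (mm10). The first ran from 92479681 to 92621001 and held Olfr1416, Olfr1415, Olfr1414, Olfr1412, Olfr1411, Olfr1410 and Olfr12. Its 1 row above 0 was Olfr1413, with 0 and 0.0232 FPKM. Active genes bordered the group closely, with Ndufa10, a subunit of respiratory complex I, at 53.0 and 53.8 FPKM on its left and Myeov2 at 135 and 147 FPKM on its right. The group is a stretch of 141 kb at or near 0 between strongly expressed genes.

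The second group, 172956768 to 173271137, held Olfr16, Olfr218, Olfr1404 and Olfr418 and no row above 0. The third, 174041933 to 174449602, held 12 of the 104 genes in 14 rows: Olfr433, Olfr432, Olfr430, Olfr429, Olfr426, Olfr424, Olfr421-ps1, Olfr420, Mptx1, Olfr417, Olfr414 and Olfr220. Mptx1, a mucosal pentraxin of the gut, is the member that is no receptor. Of the 2 rows above 0 there, Olfr248 had 0.0348 and 0 FPKM. These 2 groups lie beyond position 156719102, where the table's minus-strand rows end, so only plus-strand neighbours were seen. No olfactory receptor row exceeded 0.0348 FPKM in either genotype.

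The gene models behind these rows were short. The locus entries of the 22 receptors had a median of 0.968 kb, and for the 21 matched in GENCODE M21 the entry had a median of 14.1% of the annotated gene length. In 19 of 21 the table's locus was shorter than the longest annotated transcript, compared with 2 of 70 other protein-coding genes at 0. Whether fragments from the parts of receptor transcripts outside these entries were counted was not tested.

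Clade B serpins are intracellular protease inhibitors, of which Serpinb2 (plasminogen activator inhibitor of macrophages) and the Serpinb3 group of skin are the best known. All 12 rows of the clade lay between 106861180 and 107608978. Those at 0 were Serpinb12, Serpinb13, Serpinb3d, Serpinb3b, Serpinb3c, Serpinb7 and Serpinb2. Serpinb8 had the highest value of the clade, 0.0993 and 0.0933 FPKM. Serpinb3a had 0.0354 and 0 FPKM, Serpinb10 had 0.0214 and 0 FPKM, Serpinb11 had 0.0126 and 0 FPKM, and Serpinb5 had 0.0175 and 0.0200 FPKM. The whole 748 kb block thus stayed under 0.1 FPKM, and the genes at 0 alternated with genes barely above it. Members of the Serpinb3 group are close copies: Serpinb3b and Serpinb3c transcripts were 94.0% identical over 1647 aligned bases, and Serpinb3a was 93.1% identical to Serpinb3b, so the division of reads among them is uncertain.

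The sequence just before the start of these genes was low in CpG, the dinucleotide that is dense in promoters of broadly used genes. The upstream 250 bases of 4 genes are shown, from the RefSeq promoter table for GRCm38.p6, with CG and the letters TATAAA (or TTTATA, its other strand) in capitals. Serpinb3b (chr1:107161115-107161364, minus strand) and Serpinb3c (chr1:107278372-107278621, minus strand) stand for the serpins, En1 (chr1:120602237-120602486, plus strand) is the CpG-rich exception at 0, and Ndufa10 (chr1:92473759-92474008, minus strand) is the expressed neighbour of the first olfactory group.
Serpinb3b: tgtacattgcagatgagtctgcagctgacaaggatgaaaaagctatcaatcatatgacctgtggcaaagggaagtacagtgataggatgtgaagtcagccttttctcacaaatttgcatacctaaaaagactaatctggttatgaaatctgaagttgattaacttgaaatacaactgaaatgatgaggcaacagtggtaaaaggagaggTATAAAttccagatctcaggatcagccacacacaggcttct
Serpinb3c: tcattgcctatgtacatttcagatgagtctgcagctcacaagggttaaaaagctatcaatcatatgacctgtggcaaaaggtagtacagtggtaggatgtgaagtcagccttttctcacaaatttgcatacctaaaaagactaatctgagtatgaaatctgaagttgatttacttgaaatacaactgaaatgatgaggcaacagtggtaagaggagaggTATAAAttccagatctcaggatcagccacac
En1: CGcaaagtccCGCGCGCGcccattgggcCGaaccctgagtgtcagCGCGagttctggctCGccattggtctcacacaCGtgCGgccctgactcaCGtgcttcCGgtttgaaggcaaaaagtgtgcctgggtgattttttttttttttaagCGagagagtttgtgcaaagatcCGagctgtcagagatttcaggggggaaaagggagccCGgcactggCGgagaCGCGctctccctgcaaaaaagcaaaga
Ndufa10: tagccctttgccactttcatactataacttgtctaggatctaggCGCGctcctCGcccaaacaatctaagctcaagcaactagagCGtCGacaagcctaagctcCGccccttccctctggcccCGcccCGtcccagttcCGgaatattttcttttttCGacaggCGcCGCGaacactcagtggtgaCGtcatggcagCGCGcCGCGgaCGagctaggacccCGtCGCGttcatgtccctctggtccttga
The serpin windows have 0 CpG and were 95.4% identical over 240 aligned bases. The En1 window has 19 CpG and the Ndufa10 window 22.

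Over 300 bases (250 before and 50 after the start), the ratio of observed to expected CpG was compared between sets of protein-coding genes, as a description across genes. Outside the olfactory receptors, 50 of the 70 protein-coding genes at 0 had a window at an annotated start, and their median ratio was 0.239. In the 178 windows of genes above 0 but not tested it was 0.278, and in the 487 windows of tested genes it was 0.772. A ratio of at least 0.6 was found in 2 of the 50 windows (4%), in 20.8% of the untested genes above 0 and in 74.7% of tested genes. The 2 were En1 with 0.948 and Ctla4 with 0.609. Among the noncoding RNAs at 0, Pantr2 and Ptgs2os2 also passed, with 0.605 and 0.623. The median of the genes at 0 lay closer to that of the untested genes above 0 than to that of the tested genes.

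The letters TATAAA on either strand occurred in 17 of the 50 windows (34%). They occurred in 13.5% of the windows of untested genes above 0 and in 4.93% of those of tested genes. Of all 32851 windows of that length in the RefSeq table, 13.6% held the letters. All 6 clade B serpins with a window held them, and so did 6 of 14 genes of immunity and host defence. No other motif was searched besides CG, and a match describes letters in the window only. Windows of olfactory receptors were left out because 17 of 18 lay more than 1 kb inside the outermost annotated start, at the short models described above.

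**Figure D3:**
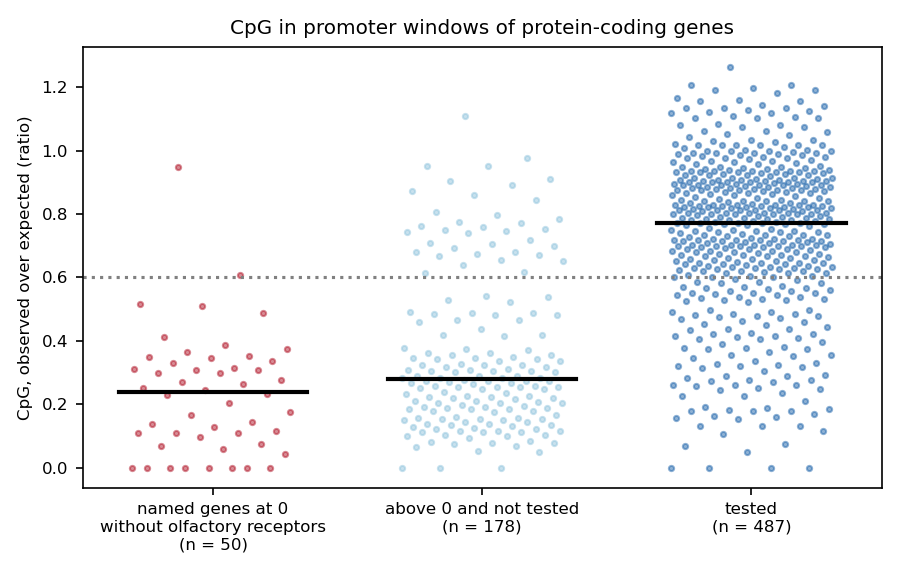
Each point is the observed over expected CpG ratio in the promoter window of a protein-coding gene, with black bars for medians and a dotted line at 0.6. The named genes at 0 have a median of 0.239 and the tested genes 0.772, with En1 the topmost point of the genes at 0.

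Immune genes at 0 included cytokines, receptors of white blood cells and antimicrobial genes. Il17a, a cytokine of helper T cells (20730905 to 20734496), was at 0, and its relative Il17f had 0 and 0.0167 FPKM. In the interleukin 10 family, Il10 (131019845 to 131024970) and Il20 (130907192 to 130911296) were at 0, Il19 had 0.0261 and 0 FPKM and Il24 had 0.0209 and 0 FPKM. Ctla4, the inhibitory receptor of T cells, was at 0 between its relatives Cd28 (0.0432 and 0.0469 FPKM) and Icos (0.0172 and 0.0117 FPKM). All these relatives were therefore within the lowest band of the table.

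Chemokine genes differed within their family. Cxcr1, a receptor of neutrophils, was at 0, and the related Cxcr2 had 0.0472 and 0.0606 FPKM. By contrast Cxcr4, which guides neurons and vessels, had 37.5 and 39.7 FPKM and Ackr3, a scavenger of the same ligand, had 5.09 and 6.36 FPKM. Ccl20, a chemokine of epithelia, was at 0. Further genes at 0 were Fcamr and Fcmr (Fc receptors for IgM), Tnfsf4 (OX40 ligand), Slamf6 and the adaptor Sh2d1b2 of natural killer cells, and Sele (E-selectin of inflamed endothelium). The related Selp had 0.00924 and 0 FPKM. Markers of white blood cells and vessels were above 0 elsewhere in the table, with Ptprc at 0.139 and 0.0920 FPKM and Cd34 at 6.66 and 6.86 FPKM.

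Among the antimicrobial genes, the beta defensins Defb44-ps, Defb18 and Defb41 (its row joined with Gm15386) lay together from 18210053 to 18265138, between Crisp4 (0 and 0.0269 FPKM) and the transcription factor gene Tfap2d (8.81 and 8.84 FPKM). Lyg2 (37905923 to 37916493) and Lyg1 (37946738 to 37957759) encode goose-type lysozymes and lay between Mitd1 (7.95 and 8.78 FPKM) and Txndc9 (13.4 and 14.6 FPKM).

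Complement and clotting genes are largely made in liver. F13b (the B chain of clotting factor XIII) was at 0. C4bp, a regulator of complement, was at 0, and so was Cd55b, while Cd55, the widely used membrane regulator, had 0.941 and 0.905 FPKM. For Cd55b 25.9% of the 50-base stretches of its transcript recur in other genes, mostly Cd55, so the assignment of reads between these copies is uncertain.

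**Figure D4:**
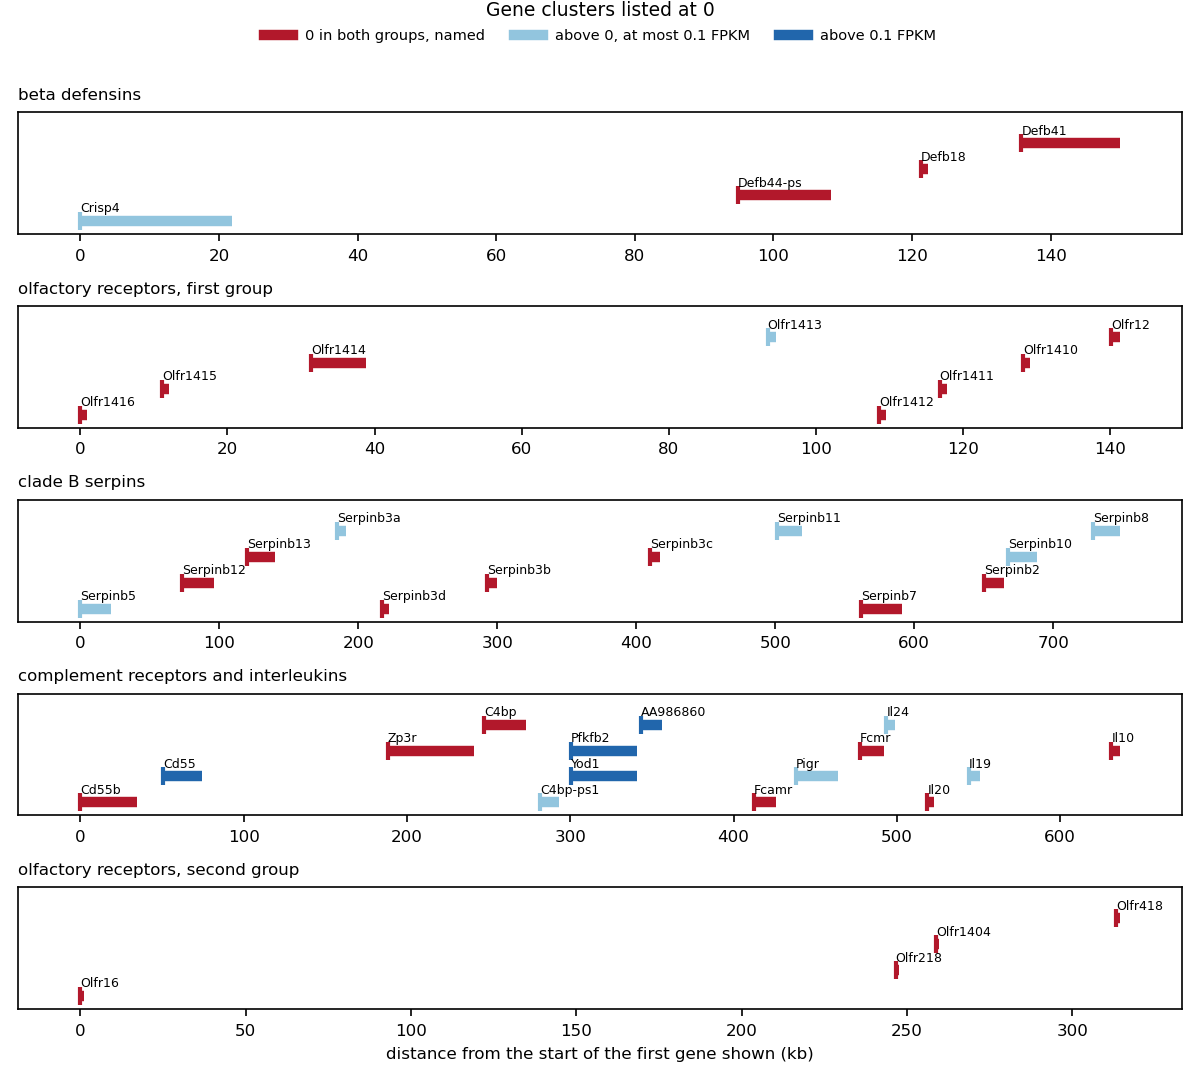
Maps of 5 neighbourhoods, with bars from start to end of each table row in kb from the first gene shown, stacked only to keep names apart. Dark red rows are the named genes at 0, and the clade B serpin map and both olfactory maps hold no row above 0.1 FPKM, unlike the complement map.

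Neighbouring genes were read as a cluster when at least 3 of the 104 lay in a row by start position with no row above 0 between them. There were 8 such clusters with 31 genes. They comprised 1 of 8 genes, 2 of 4 genes and 5 of 3 genes. The largest was Olfr433 to Olfr420, 118 kb from 174041933 to 174159767. Others were Olfr1412 to Olfr12 (92588332 to 92621001), Olfr16 to Olfr418, Olfr1416 to Olfr1414 (92479681 to 92518515), Serpinb3d to Serpinb3c (107078193 to 107278371), the defensins, and Prss39, Cfc1 and Prss40 (34498430 to 34560943). Of these 8 clusters, 4 consisted of olfactory receptors alone, and the last named joined a Nodal co-receptor gene with a pair of proteases. A further 14 sites had 2 of the genes in a row, among them Khdc1a with Khdc1c, Alppl2 with Alpi, Zp3r with C4bp and Kiss1 with Ren1.

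Genes of germ cells and the reproductive tract formed another set. Prss39 and Prss40 encode testis serine proteases and flank Cfc1. Their transcripts were 70.6% identical over 1168 aligned bases, and Prss56, a further protease of that fold, had 0.0604 and 0.0218 FPKM. Tnp1 (transition protein of spermatids), Spata3, Zp3r (a sperm protein related to C4bp) and Adcy10 (the soluble adenylyl cyclase of sperm) were at 0, as were Pih1d3, an assembly factor of ciliary dynein, Als2cr12 and Hsfy2. Khdc1a (21349677 to 21352199) and Khdc1c (21368331 to 21369743), KH-domain genes of oocytes, were at 0, and Khdc1b had 0.0102 and 0 FPKM. Khdc1a and Khdc1c transcripts were 98.1% identical, and 43.5% and 43.1% of their 50-base stretches recur in other genes, most in each other.

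Several regulators of early development at 0 are known from other regions or stages, and whether this bears on their values was not tested. Pax3, the paired-box factor of neural crest and muscle precursors (78101267 to 78197136, minus strand), was at 0, with Epha4 at 3.34 and 2.82 FPKM on its left. En1, the homeobox factor of the midbrain and hindbrain (120602487 to 120607991, plus strand), lay 414 kb from the nearest row with at least 1 FPKM. Prdm14 of germ cells lay 11.9 kb from Ncoa2 (16.4 and 15.3 FPKM). Lefty2 and Cfc1, a secreted inhibitor and a co-receptor of Nodal signalling in left-right patterning, were at 0, and Lefty1 had 0.0530 and 0.0696 FPKM. Ascl5 is a bHLH gene of the achaete-scute family.

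Hormone and sensory genes at 0 were Nms (neuromedin S), Prlh (prolactin-releasing hormone), Kiss1 (kisspeptin), Avpr1b (a vasopressin receptor of the pituitary), the renin row Ren1 joined with Ren2, Fam150a (a ligand of the ALK receptor) and Trpm8, the cold-sensing channel. Kiss1 and renin were adjacent, between Golt1a (0.0113 and 0.0420 FPKM) and Etnk2 (1.11 and 1.14 FPKM).

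Genes of gut, kidney and pancreas included the intestinal alkaline phosphatase Alpi (87098002 to 87101606) and its relative Alppl2 (87086691 to 87089928), both at 0, while their relative Akp3 had 0 and 0.0409 FPKM. Aqp12 (an aquaporin of pancreas) and Kmo (an enzyme of tryptophan breakdown) were at 0 as well, as were Neu4 (a sialidase) and Cpa6 (a carboxypeptidase). The placing of Neu4 and Cpa6 in this group was not checked against tissue data, and neither need be limited to these organs. Rows of the group differed in their surroundings. Aqp12 lay 3.07 kb from Kif1a, a neuronal motor at 48.8 and 43.4 FPKM. Kmo lay 218 kb from the nearest row with at least 1 FPKM.

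Muscle genes differed among themselves. Chrnd, the delta subunit of the muscle acetylcholine receptor (87190597 to 87200070), was at 0 in both groups. The adjacent Chrng, its gamma subunit, had 1.62 and 0.300 FPKM. Tnni1, a slow-fibre troponin, had 0.917 and 0.143 FPKM and Myog, the myogenin gene, had 0.139 and 0.0548 FPKM. Chrnd was the only one of 6 measured markers on the muscle list at 0. The summed level of that list was 16.7 and 13.8 FPKM, most of it from Mstn. The part of muscle RNA in these values was not tested. Linc-md1, the muscle RNA that hosts Mir133b, and Mettl21e, a methyltransferase gene of muscle, were also at 0.

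Noncoding RNAs at 0 included a neighbouring pair. Pantr2 and Dalir lie beside Pou3f3, a POU factor of the brain, which had 0.374 and 0.345 FPKM, and the neighbouring noncoding RNA Pantr1 had 0.278 and 0 FPKM. Celrr, Pinc and Ptgs2os2 complete the long RNAs, and AA619741 and Stk-ps2 are pseudogenes. The rows with no role assigned were Xkr9, Ankar, Akr1cl, Mroh2a, Map3k19, Mgat4e, Apobec4, Wdr64 and Clasp1.

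Not every row at 0 is a silent gene. Clasp1, a microtubule regulator, appears in 2 rows with the same locus. The plus-strand row had 27.8 and 24.5 FPKM, and the row at 0 stands in the minus-strand part of the list, where the annotation has no Clasp1. This row therefore does not show Clasp1 to be silent, and it entered none of the lengths and sequences above. In all, 8 of the 104 rows shared their locus entry with another row, among them Scarna6 with Atg16l1 (9.61 and 9.51 FPKM), Scarna3a with Rfwd2 (32.8 and 34.0 FPKM), Apobec4 with Rgl1 (3.72 and 3.28 FPKM) and Mroh2a with a joined row of Hjurp (57.2 and 52.3 FPKM). How reads in such shared places were divided, and whether strand was used, is not stated by the labels.

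Most of the genes had no close copy. Of 101 with an annotated transcript, 61 shared no 50-base stretch with another gene and 10 shared at least 10%. Among these 10 were Khdc1a, Khdc1c, Stk-ps2, Olfr1415, Serpinb3d, Cd55b, Sh2d1b2, Mptx1 and Lefty2. Their 0 and that of Serpinb3b and Serpinb3c are less certain, since the treatment of reads with several matches is not stated by the labels.

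Distance to active genes varied widely. It was measured from the GENCODE bounds of each gene at 0, where matched, to the listed entry of the expressed row. The median distance from a gene at 0 to the nearest row with at least 1 FPKM was 77.2 kb, with 58 of 104 within 100 kb and 22 beyond 250 kb. The Clasp1 row is counted among the 58, at 0 kb from the expressed Clasp1 row. Serpins lay farthest, with a median of 357 kb and Serpinb2 at 714 kb. Olfactory receptors had a median of 173 kb but ranged from 1.68 kb for Olfr1416 to 457 kb for Olfr433. The annotated receptor genes mostly extend past their short listed entries, from which the distances are longer. The 7 genes of hormones, their receptors and sensory channels all lay within 82.8 kb. Duplicated families therefore included both isolated genes and genes beside active ones. Beyond position 156719102, where 25 of the 104 genes lie, minus-strand genes were not seen and true distances may be shorter.

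**Figure D5:**
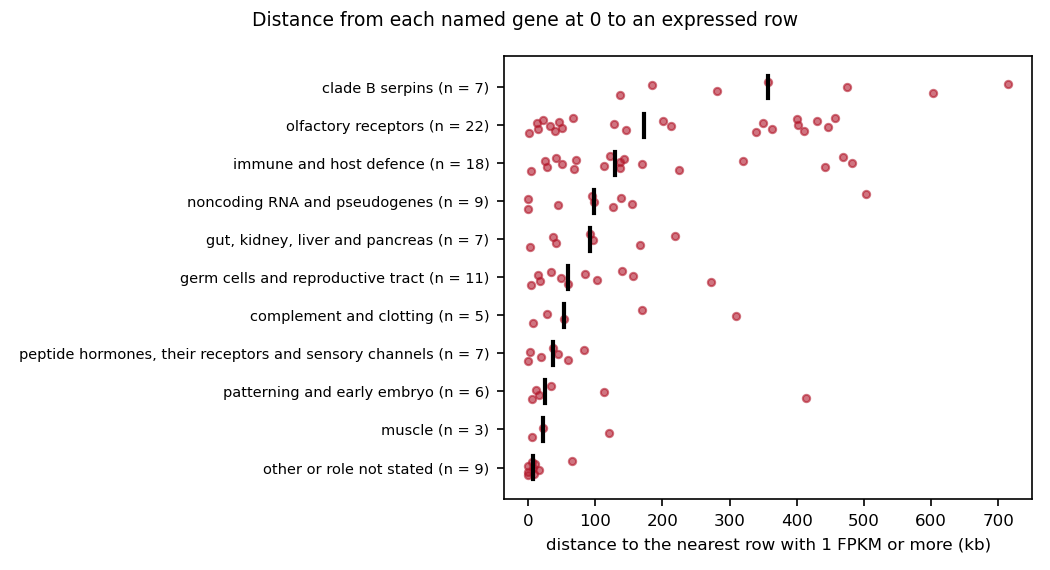
Each point is a named gene at 0, placed by its distance in kb to the nearest row with at least 1 FPKM and sorted by role, with black bars for medians. Clade B serpins have the largest median, 357 kb, and the genes with no role assigned, which include the Clasp1 row, the smallest, 7.07 kb.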

How the data were processed

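RNA of 6 retina libraries was sequenced with Illumina chemistry, per the labels. Tools listed in the submitters' processing notes are TopHat2 2.1.1, Cufflinks 2.1.1 and CASAVA, and the build is mm10. No label names the gene annotation. The columns of the deposited file match Cuffdiff output. Group values deposited there were read as FPKM, which the file header does not state. For all 104 genes the authors' log2 fold change was 0, and the authors' p-value and q-value were 1. Of 1141 rows, 1 was incomplete and left out. The rows cover chromosome 1, minus strand in part; other chromosomes were not analysed here.

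Groups came from the sample titles. Members and lists were chosen with earlier results of these data known, and roles after the genes were seen. The rule for named genes allowed every member, relatives on the family lists, rows flanking a cluster, the rows just above 0 and the markers. Nearest active genes, rows sharing a locus entry, genes flanking other members, Lefty1, Pou3f3, and the rows at 0 in only 1 group were named after their values were seen. Patterns of the lists also caught 6 unrelated rows, which were removed. Other rows, such as Adam23 and Pde6d, were kept by symbol alone and need not be typical of their list. Genes were matched by symbol or synonym and overlap to GENCODE M21 (101 of 104, same build), and 72 had a RefSeq promoter window within 100 bases of an annotated start. Stretches of 50 bases were searched on both strands in all GENCODE transcripts, except those of genes that overlap the gene in question. Transcripts were aligned with Biopython 1.88 in Python 3.11.15. Starts were converted to count from 1. The functions were tested on simulated data. No test between groups was made. Some genes and 1 cluster of 3 genes are counted but not reported here. Alternatives changed the value taken as 0, the kinds of gene and the cluster rule.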

Additional observations from a re-analysis of the deposited data

How the results depend on the processing

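The number of genes depends on the value taken as 0. With both values at or under 0.05 FPKM there were 193 named genes and at or under 0.1 FPKM 236, against 104. Requiring 0 in control alone gave 121 and in knock-in alone 134, and protein-coding genes alone were 90. Leaving out joined names and Clasp1 left 100. Leaving out the 10 genes with at least 10% of their 50-base stretches in a gene elsewhere left 94, with Serpinb3b and Serpinb3c still counted. This alternative was added after seeing the data. The 8 clusters with 31 genes became 5 clusters when members had to lie at most 50 kb apart, 22 clusters with 59 genes when 2 in a row sufficed, and 6 clusters with 19 genes in the part of the chromosome covered on both strands. With gaps of 100 kb and 200 kb there were 9 and 8 clusters. When rows at or under 0.1 FPKM did not break a run there were 8 clusters with 43 genes, the largest with 12. No SD or leave-one-out value could be given, because the table holds combined values. No paired analysis was possible because values for separate pools were not used here, only 1 combined number for each genotype.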

Other observations

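Rows at 0 in only 1 group were all untested by the authors. The highest of those at 0 in the knock-in group were the predicted gene Gm19705 with 0.496 FPKM in control, Spata45, a spermatogenesis-associated gene, with 0.336 FPKM, and the noncoding RNA Pantr1 with 0.278 FPKM. The highest at 0 in control was 2900060B14Rik, whose locus entry is that of Clasp1, with 0.271 FPKM in knock-in retinas. The median value in the group above 0 was 0.0216 FPKM for the 40 rows seen only in control and 0.0235 FPKM for the 30 seen only in knock-in retinas. These differences were not tested.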
